A study of Arabidopsis thaliana with 9 samples.

Results

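The ERD6-like genes of Arabidopsis thaliana encode monosaccharide transporters, and 10 of them were followed on expression arrays of roots in which the transcription factor bHLH49 was overexpressed, mutated or normal. The 10 loci were AT4G04760 and its neighbour AT4G04750, AT3G05150, AT3G05155, AT3G05160, AT3G05165, AT3G05400, AT5G18840, SFP1 (AT5G27350) and SFP2 (AT5G27360). A probe set was taken where the annotation gave it exactly 1 gene and that gene was one of these loci. All 10 loci had 1 such probe set, 10 of 38408 on the array and of 16722 with exactly 1 gene (16550 different genes). The family was chosen by a measured value, the low level of AT4G04760 on the overexpressor arrays. Its values in the overexpressor, and those of its neighbour, are therefore given as a description and without a test. The other 8 loci were listed by family, with earlier results of these data known, so their tests may not be free of selection. Of 9 further ERD6-like loci that were not among the 10, 5 had a probe set and are given below.

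RNA came from roots of 4-day-old Col-0 seedlings on MS (Murashige and Skoog) medium, with 3 arrays each of a bHLH49 overexpressor, a bHLH49 loss-of-function mutant and wild type. The labels call the tissue root in one place and root tips in another, and they do not say whether the 3 arrays of a genotype came from separate plantings. Every p-value therefore rests on array-to-array spread, of which a part may be technical. The sources used here do not give the promoter that drives bHLH49, the mutant allele or the number of lines. The labels mention kanamycin or phosphinothricin for the selection of transgenic seed without saying which genotype was grown on them, so genotype and antibiotic cannot be told apart. All 9 arrays had medians between 5.85 and 5.92 on the log2 scale of RMA and lower quartiles between 3.65 and 3.70. In the annotation bHLH49 itself has no probe set with 1 gene, and its transcript could not serve as a check of the genotype labels. The root hair expansins EXPA7 and EXPA18 averaged 8.996 and 10.44 over the 9 arrays, both above the upper quartiles of 7.99 to 8.02. The other root marker with a probe set, the root cap polygalacturonase AT1G65570, averaged 7.34, below the upper quartiles. Of the shoot markers, RCA averaged 7.61 and LHCB4.1 averaged 6.62, between the median and the upper quartile, so the photosynthetic transcripts were not at the bottom of the range.

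ERD6 was found as a gene that responds early to dehydration, and its relatives form a large branch of the monosaccharide transporter-like proteins, which span the membrane many times and carry sugars such as glucose. The members studied so far lie mainly at the vacuolar membrane, where they move sugar between the vacuole and the cytosol by facilitated diffusion or together with protons. Many members stand side by side in the genome as tandem copies. Among the loci measured, AT4G04750 and AT4G04760 are neighbours, AT3G05155, AT3G05160 and AT3G05165 follow one another with AT3G05150 close by, and SFP1 and SFP2 form another pair. Whether probes of one copy also bind transcripts of another was not tested, since the probe sequences were not used here.

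AT4G04760, which encodes an ERD6-like sugar transporter, was low on all arrays of the overexpressor. Its log2 values were 4.18, 4.47 and 4.37 in the overexpressor, 6.49, 6.42 and 6.14 in the mutant and 5.91, 6.09 and 6.40 in wild type. The overexpressor arrays lay below every other array, while mutant and wild-type arrays overlapped. The means were 4.34 ± 0.15 in the overexpressor, 6.35 ± 0.19 in the mutant and 6.13 ± 0.25 in wild type (SD, n = 3 each). The difference from wild type was -1.79 ± 0.15 on the log2 scale (SE of the fit to all 9 arrays), or 3.46-fold lower in the overexpressor. The difference from the mutant was -2.01 ± 0.15, or 4.03-fold lower in the overexpressor. Even in the overexpressor the values stayed above the lower quartiles of the arrays. In bulk roots, fewer cells that express a gene and less RNA per cell cannot be told apart. Loss of function did not give a change that passed the test, since the mutant stood 0.22 ± 0.15 above wild type with a 95% interval from -0.12 to 0.56 (limma adjusted p = 0.73).

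The neighbouring copy AT4G04750 had no such drop. Its log2 values were 6.71, 6.61 and 6.75 in the overexpressor, 6.985, 7.004 and 6.771 in the mutant and 6.81, 6.62 and 6.48 in wild type. The overexpressor arrays fell within the wild-type range, and the overexpressor mean differed from that of wild type by 0.05 ± 0.10 (SE), given as a description. Against the mutant the difference was -0.23 ± 0.10, and the highest overexpressor array lay just under the lowest mutant array. In the mutant, AT4G04750 stood 0.28 ± 0.10 above wild type and did not pass the test (limma adjusted p = 0.54). Mutant and wild-type arrays overlapped, with wild-type array 1 just above the lowest mutant array.

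**Figure D1:**
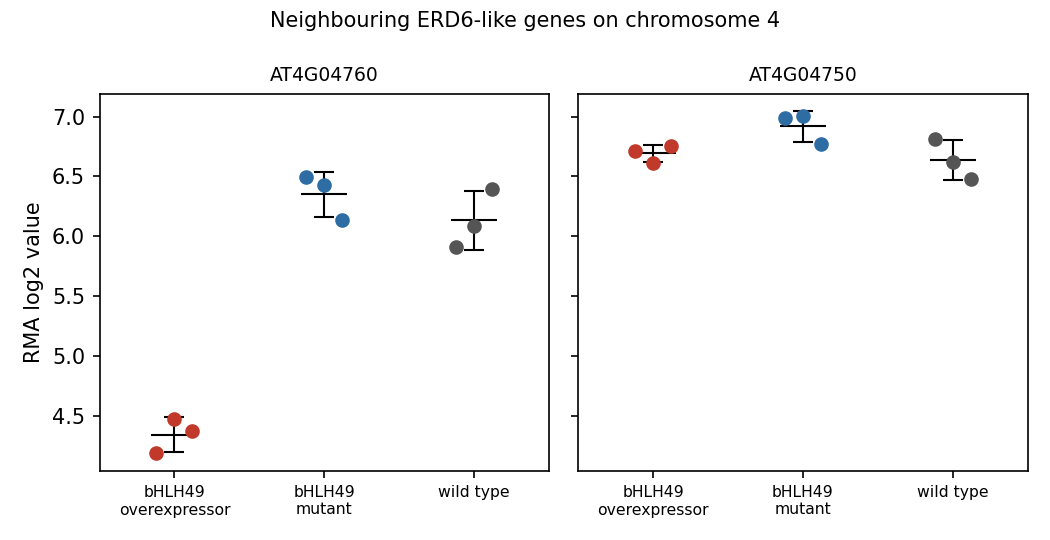
RMA log2 values of the neighbouring genes AT4G04760 (left) and AT4G04750 (right) on each array of the bHLH49 overexpressor, the bHLH49 mutant and wild type. Points are arrays, the wide bar is the mean and the whiskers are 1 SD (n = 3). AT4G04760 averaged 4.34 in the overexpressor against 6.13 in wild type, while AT4G04750 averaged 6.69 and 6.64.

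Overexpressor against wild type asked which transcripts differed between arrays labelled as bHLH49 overexpressing and wild-type arrays. AT5G18840, another ERD6-like transporter gene, was the one of the 8 loci outside the chromosome 4 pair that passed the test. It read 6.43, 6.53 and 6.28 in the overexpressor, 6.11, 6.11 and 6.22 in the mutant and 5.823, 5.999 and 5.793 in wild type. The genotypes were ordered with overexpressor highest and wild type lowest, and no 2 of them overlapped, though neither the step from wild type to mutant nor that from mutant to overexpressor passed on its own. AT5G18840 rose by 0.54 ± 0.09 on the log2 scale (SE; 95% interval 0.34 to 0.74; limma adjusted p = 0.0285), or 1.46-fold, and was higher on 3 of 3 overexpressor arrays than on any wild-type array. The call was close to the threshold. It was missed in 7 of 9 refits without 1 array, with adjusted p from 0.0434 to 0.108 over the 9. It was also missed when only the 6 arrays of both genotypes entered the fit (adjusted p = 0.093). The rise itself lay between 0.48 and 0.61 in all of these refits. Those that kept all 6 arrays of both genotypes could not move it.

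Of the 8 loci outside the chromosome 4 pair, 1 rose, 0 fell and 7 did not pass, where 1.35% of all probe sets were called, 0.745% higher and 0.609% lower. Over all 10 members, the pair included, the median log2 change was 0.07, beside -0.01 over all probe sets. Of these 10, 6 stood above 0 and 4 below. AT4G04760, by whose drop the family was chosen, enters both summaries, so they are a description. Among the 8 loci outside the pair, 3 had an unadjusted p below 0.05 (AT5G18840, AT3G05155 and SFP1), as did 13.6% of all probe sets. For the same 3 loci there was no overlap between overexpressor and wild-type arrays, as for 19.5% of all probe sets. AT3G05155 and SFP1 had a larger spread relative to their change than AT5G18840.

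AT3G05155 read 5.40, 5.10 and 5.72 in the overexpressor, 5.87, 5.70 and 5.73 in the mutant and 5.74, 5.82 and 5.89 in wild type. All overexpressor arrays lay below the wild-type arrays, array 3 only narrowly. The change against wild type was -0.41 ± 0.14 (SE; 95% interval -0.74 to -0.08) and did not pass (limma adjusted p = 0.261). SFP1, a sugar-porter family gene known to be induced in ageing leaves, read 8.70, 8.54 and 8.69 in the overexpressor, 8.47, 8.25 and 8.61 in the mutant and 8.35, 8.40 and 8.42 in wild type. Its overexpressor arrays lay above all wild-type arrays, with a change of 0.25 ± 0.10 (SE) that did not pass (limma adjusted p = 0.299). Its tandem partner SFP2 stood at -0.10 ± 0.12.

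**Figure D2:**
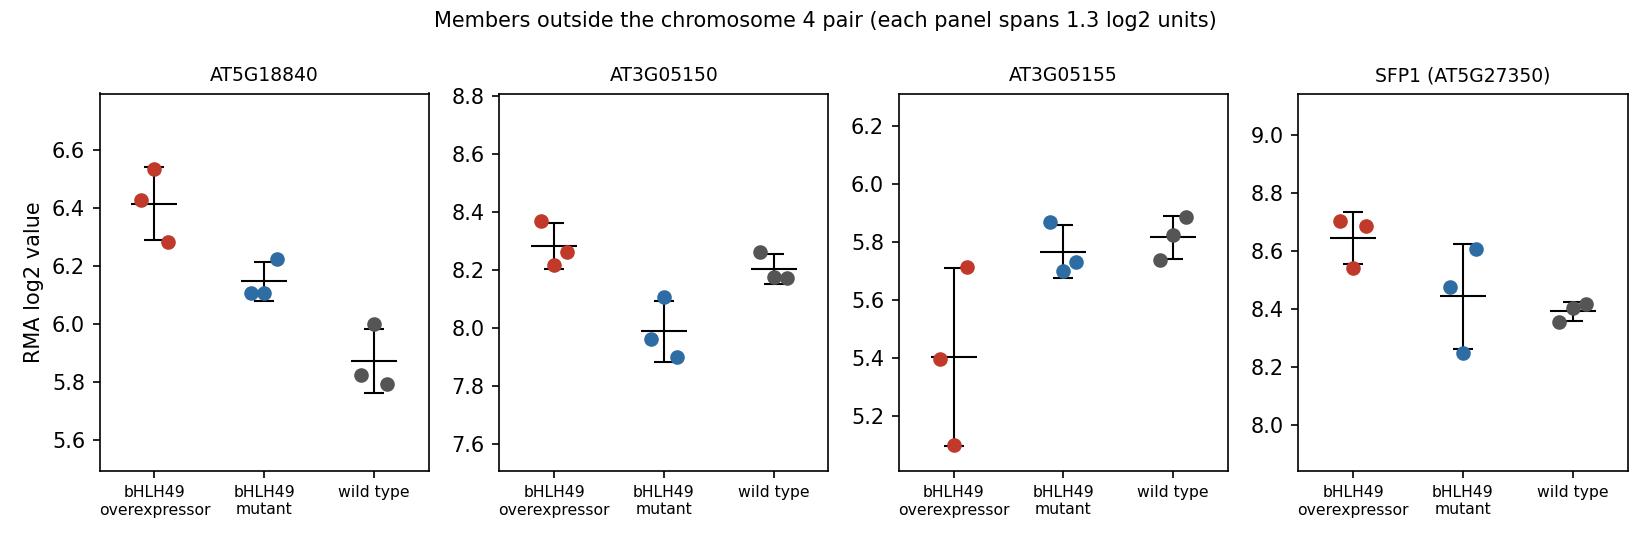
RMA log2 values of AT5G18840, AT3G05150, AT3G05155 and SFP1 on each array of the bHLH49 overexpressor, the bHLH49 mutant and wild type, with the mean and 1 SD (n = 3). Each panel has its own log2 axis of equal span. AT5G18840 has 3 separate groups of points, and the overexpressor points of AT3G05155 spread from 5.10 to 5.72.

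Mutant against wild type asked which transcripts differed between arrays labelled as the loss-of-function mutant and wild-type arrays. None of the 10 members passed in limma, with adjusted p from 0.494 to 0.972, in a comparison in which 0.0234% of all probe sets were called. At an unadjusted p below 0.05 there were 3 members, AT3G05150, AT4G04750 and AT5G18840, where 8.44% of all probe sets reached that level. Changes ran from -0.21 to 0.28, with 4 above 0 and 6 below. The median was -0.03, beside 0.00 over all probe sets. Arrays did not overlap for 2 members, AT3G05150 and AT5G18840, beside 12.4% of all probe sets.

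AT3G05150, the first of the chromosome 3 group, had its lowest values in the mutant. It read 8.37, 8.22 and 8.26 in the overexpressor, 7.96, 8.11 and 7.90 in the mutant and 8.26, 8.18 and 8.17 in wild type. The 3 mutant arrays were the lowest of the 9, and the overexpressor arrays overlapped those of wild type. The change in the mutant was -0.21 ± 0.07 (SE; 95% interval -0.38 to -0.05; limma adjusted p = 0.517). AT5G18840 stood at 0.27 ± 0.09 in the mutant (SE; 95% interval 0.07 to 0.47; limma adjusted p = 0.494). Both comparisons with wild type use the same 3 wild-type arrays.

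Overexpressor against mutant set the arrays of both altered genotypes against each other. Of the 8 loci outside the pair, 0 rose, 0 fell and 8 did not pass in limma, where 1.83% of all probe sets were called, 0.971% higher and 0.857% lower. At an unadjusted p below 0.05 there were 4 of the 8, where 15.1% of all probe sets reached that level. AT3G05150 came nearest, higher in the overexpressor by 0.29 ± 0.07 (SE; 95% interval 0.13 to 0.46; limma adjusted p = 0.104) with arrays that did not overlap. AT5G18840 was higher by 0.27 ± 0.09 (limma adjusted p = 0.192), AT3G05165 by 0.19 ± 0.08 (limma adjusted p = 0.315), and AT3G05155 stood at -0.36 ± 0.14 (limma adjusted p = 0.28). Non-overlapping arrays were found for 2 of the 8, AT3G05150 and AT5G18840, beside 20.5% of all probe sets. The moderated F test of limma over the 3 genotypes passed for 0 of the 8, where it passed for 1.53% of all probe sets. At an unadjusted p below 0.05 it gave 3 of the 8, beside 14.7% of all probe sets. AT5G18840 came nearest (limma adjusted p = 0.0536).

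**Figure D3:**
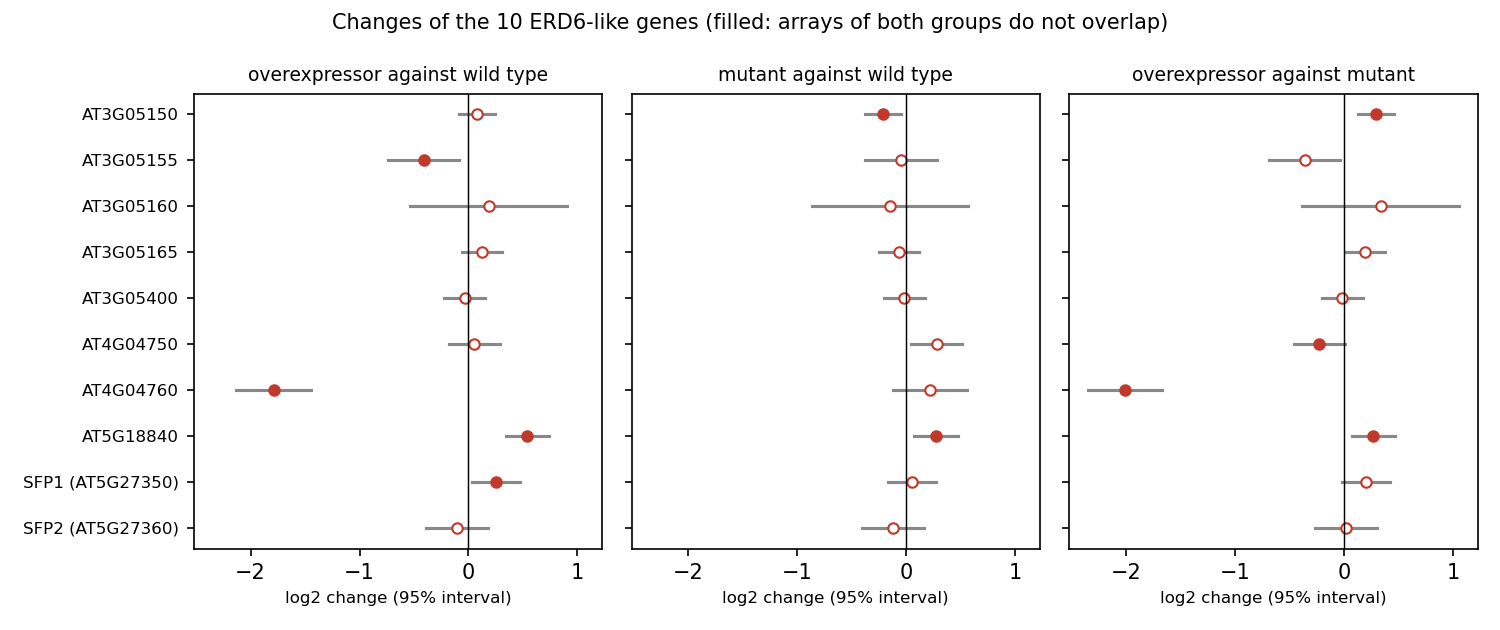
Log2 change of each of the 10 ERD6-like genes in overexpressor against wild type, mutant against wild type and overexpressor against mutant, with the 95% interval of the fit as a line. Filled points mark genes whose arrays did not overlap between both groups. For AT4G04760 and AT4G04750, the lines in the comparisons that include the overexpressor are a description and not a test. AT4G04760 stands at -1.79 and -2.01 in the comparisons that include the overexpressor, and all other points lie between -0.41 and 0.54.

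The remaining members had values that overlapped in every comparison. AT3G05165 ranged from 6.77 to 7.16 over the 9 arrays. AT3G05160 was the most variable member, from 3.73 to 4.97, with both extremes among the overexpressor arrays and an SD of 0.62 there. Its interval against wild type, from -0.53 to 0.90, is wide enough to hold a change of the size seen for AT5G18840. AT3G05400 lay between 2.85 and 3.09 and SFP2 between 2.62 and 3.13, below the lower quartiles of every array. For these dim genes the change in the overexpressor was -0.03 ± 0.08 and -0.10 ± 0.12 (SE), and their low signal limits what change an array can show. The residual SD of the 10 members ran from 0.08 to 0.43, beside a median of 0.13 over all probe sets.

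Of the genes that flank the members and are not members themselves, 5 had a probe set with 1 gene (AT3G05170, AT3G05390, AT3G05410, AT5G18850 and AT5G27370). None of the 5 passed in any of the 3 comparisons in limma, with changes from -0.31 to 0.17 and a smallest adjusted p of 0.26. Of all probe sets 1.35% were called in overexpressor against wild type, 0.0234% in mutant against wild type and 1.83% in overexpressor against mutant. Only 1 of the 5, AT3G05410, had an unadjusted p below 0.05. That was in overexpressor against wild type, where 13.6% of all probe sets reached that level. The gene after AT4G04760, ABCI8, was not named by a probe set with 1 gene.

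The likeness of 2 genes was measured as the root mean square difference of their 9 log2 values, each centred on its own mean, over the 16721 other probe sets with 1 gene. Nearest to AT4G04760 were AT5G41290 (0.18), AT5G25490 (0.24), AT5G41300 (0.25), ICL (AT3G21720, 0.32) and AT3G15720 (0.33). AT5G41290 and AT5G41300 encode cysteine-rich repeat secretory proteins and are neighbours, AT5G25490 encodes a zinc finger protein, ICL is isocitrate lyase of the glyoxylate cycle, and AT3G15720 is polygalacturonase-like. AT5G41290 read 6.21, 6.55 and 6.16 in the overexpressor, 8.18, 8.08 and 8.17 in the mutant and 7.79, 7.65 and 8.04 in wild type. All 5 were lower on every overexpressor array than on any other array, as their choice by likeness to AT4G04760 on these same arrays entails. The other 9 members stood from 0.75 (AT3G05155) to 1.13 (AT3G05160) from AT4G04760 by the same measure, and its neighbour AT4G04750 at 0.88. These distances mostly restate the drop of AT4G04760, by which the family was chosen. The nearly flat AT3G05400 already stood at 0.90.

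**Figure D4:**
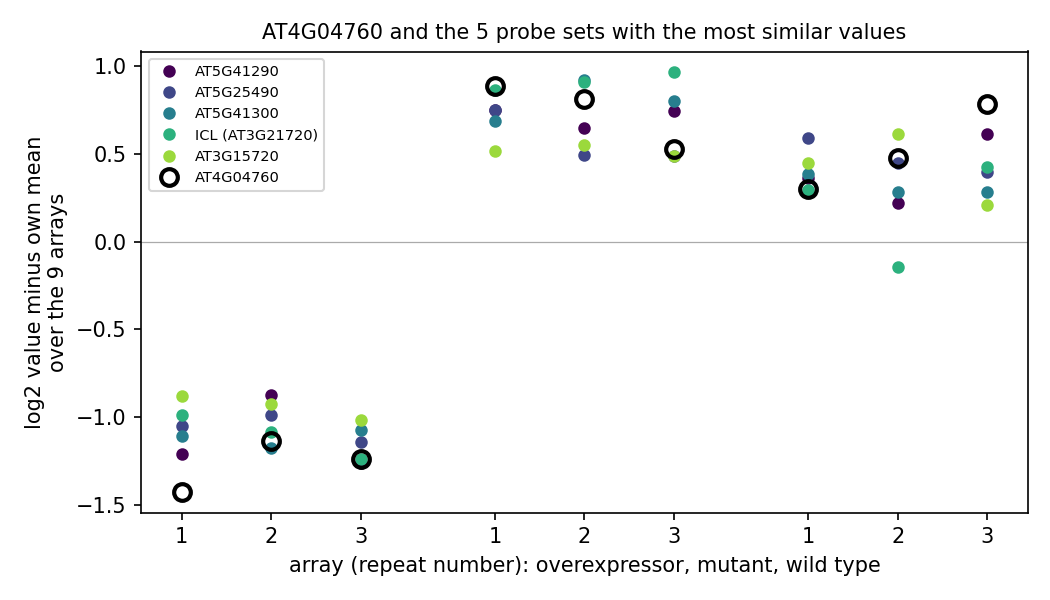
Log2 values of AT4G04760 (open black circles) and of the 5 probe sets nearest to it, each minus its own mean over the 9 arrays, for the 3 overexpressor, 3 mutant and 3 wild-type arrays. All 6 genes lie below their own mean on the overexpressor arrays.

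AT5G18840 had the widest range of genotype means among the other members, at 0.54. Nearest to it were AT5G65320 (0.09), AT2G04230 (0.09), AT4G11590 (0.10), AT1G74460 (0.10) and AT3G16560 (0.11). These distances are of the size of its own residual SD, 0.10, so the order among the 5 carries little. By the same choice all 5 shared the order of its means, highest in the overexpressor and lowest in wild type. AT5G65320 averaged 4.88 in the overexpressor, 4.64 in the mutant and 4.32 in wild type. Of the members, SFP1 was nearest to AT5G18840 (0.18).

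Of 9 ERD6-like loci that were not among the 10, 5 had a probe set (AT1G08890, AT1G08900, AT1G19450, AT1G54730 and AT3G20460). In limma 0 of the 5 passed in overexpressor against wild type, mutant against wild type or overexpressor against mutant. Of all probe sets 1.35%, 0.0234% and 1.83% were called there. At an unadjusted p below 0.05 there was 1 in overexpressor against wild type, 0 in mutant against wild type and 1 in overexpressor against mutant, where 13.6%, 8.44% and 15.1% of all probe sets reached that level. AT1G08890, higher by 0.28 in overexpressor against mutant (limma adjusted p = 0.0818), passed there in 3 alternatives, with adjusted p from 0.0277 to 0.0491. In overexpressor against wild type their changes lay between -0.20 and 0.19, with a median of -0.04. AT1G19450 is a close relative of ERDL6, a glucose exporter of the vacuole. It stood at 0.17 in the overexpressor against wild type (limma adjusted p = 0.527).

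Carriers and enzymes of sugar use, with the 5 measured ERD6-like loci of the preceding paragraph among them, were counted in the same fit. Of 98 listed genes 42 had a probe set, among them 16 of 17 SWEET facilitators, 4 of 14 STP hexose carriers and the 3 tonoplast carriers TMT1, TMT2 and TMT3. Only 2 of 16 genes of sucrose cleavage and 1 of 10 polyol and inositol carriers had one, so these groups were hardly measured. In limma 0 of the 42 rose and 0 fell in each of the 3 comparisons. Of all probe sets 1.35% were called in overexpressor against wild type, 0.0234% in mutant against wild type and 1.83% in overexpressor against mutant. At an unadjusted p below 0.05 there were 6 in overexpressor against wild type, 5 in mutant against wild type and 8 in overexpressor against mutant, beside 13.6%, 8.44% and 15.1% of all probe sets. The median log2 changes were 0.05, 0.00 and 0.03, beside -0.01, -0.01 and -0.00 over all probe sets with 1 gene. The vacuolar carriers TMT1 and TMT2, which load sugar into the vacuole, stood at 0.05 and 0.11 in the overexpressor against wild type (limma adjusted p = 0.741 and 0.5). SWEET facilitators let sugars pass along their gradient. They had a median change of 0.06 in overexpressor against wild type. SWEET11 had the largest, 0.84 (limma adjusted p = 0.54), with overlapping arrays and an SD of 1.14 in the overexpressor. SAG29 (SWEET15) stood at 0.40 (limma adjusted p = 0.102), and passed without overexpressor array 1 (limma adjusted p = 0.0241). The 7 genes of hexose phosphorylation had a median of 0.05.

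AT3G59480, a fructokinase gene singled out after its values were seen, had the largest change of these 42 in overexpressor against wild type. It read 4.61, 5.09 and 5.44 in the overexpressor, 5.97, 5.97 and 6.73 in the mutant and 6.26, 6.33 and 6.26 in wild type. All overexpressor arrays lay below the others, and the change of -1.24 did not pass (limma adjusted p = 0.0711). Under other settings it did pass in 4 refits, with adjusted p from 0.0327 to 0.0493. Of the root markers, AT1G65570 rose by 1.57 in the overexpressor against wild type (limma adjusted p = 0.00358), while EXPA7 and EXPA18 stood at -0.19 and -0.06 without passing. The shoot markers RCA and LHCB4.1 stood at 0.14 and -0.00, also without passing. AT1G65570 passed in overexpressor against mutant too, at 0.94 (limma adjusted p = 0.0221). In mutant against wild type AT1G65570, EXPA7 and EXPA18 stood at 0.63, -0.18 and -0.37 without passing. All 3 had an unadjusted p below 0.05 there, as did 8.44% of all probe sets. The part of a changed cell makeup in the values of AT4G04760 and AT5G18840 was not tested.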

How the data were processed

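RNA from 9 root samples was hybridised to single-channel arrays, with 3 arrays for each of 3 genotypes taken from the sample titles. The authors deposited 1 table of log2 values for 38408 probe sets on 9 arrays, with 0 missing values; RMA is the tool in the submitters' processing notes, without version or settings. The values were used as they stand. Names come from the platform annotation and RefSeq genes of TAIR10.1, used for names and neighbours only; 16574 of 16722 probe sets with 1 gene matched. No sequences are shown. One linear model per probe set, with the 9 arrays in 3 groups, was fitted in limma 3.58.1 under R 4.3.3 (6 residual and 1.85 prior degrees of freedom), with Benjamini-Hochberg adjustment over the 38408 probe sets. "Rose", "fell", "called" and "passed" stand for an adjusted p below 0.05. The code was tested on simulated data. The number of arrays limits the precision.

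The members and gene lists were chosen with earlier results of these data known. Named are all members, list genes past the threshold, the 5 nearest probe sets of AT4G04760 and of the other member with the widest range of genotype means, and the flanking genes; other list genes are given as examples, chosen after their values were seen. Alternatives were median centring, renewed quantile normalization, array weights, the repeat number as a block, the trend and robust options of eBayes, fits to 6 arrays, limits at the 25th or the 50th percentile of mean level, only probe sets with 1 gene, 1 probe set of each identical group, and each array left out. Same-numbered arrays of different genotypes had deviations that correlated between -0.09 and 0.03, so the numbers were not taken as pairs.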

Additional observations from a re-analysis of the deposited data

How the results depend on the processing

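In the 18 alternatives with AT4G04760 its overexpressor change was -1.90 to -1.66 against wild type and -2.12 to -1.93 against the mutant. Settings that keep the group means could not move it. The filter at the 50th percentile left AT4G04760 out, because its low overexpressor values bring its mean under that limit. Of the 8 loci outside the chromosome 4 pair, 0 in place of 1 passed in overexpressor against wild type with the replicate block and with only the 6 arrays compared, and 0 to 1 without 1 array. AT5G18840 had adjusted p = 0.0854 with the replicate block, which changed no other member's call; its change ranged from 0.48 to 0.61 without 1 array, and the cause of its lost calls was not tested. The F test called 1 locus outside the pair in place of 0 with array weights, median centring, only probe sets with 1 gene and 1 probe set of each identical group. It did so too with the filters at the 25th and 50th percentile, which left 8 and 5 of the 10 members, counting the pair. Under these 2 filters it called 768 of 28806 and 1011 of 19203 probe sets, beside 589 of 38408 in the fit reported. In overexpressor against mutant 1 locus outside the pair, AT3G05150, passed above the 50th percentile (adjusted p = 0.0385). That filter left 5 members, AT4G04750 among them, so not all of the 8 were tested. Under it 1211 of 19203 probe sets were called in this comparison, beside 702 of 38408 in the fit reported.

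The list counts, whose alternatives were added after seeing the data, were 0 in the fit reported. They include the further ERD6-like loci that were not among the members. In overexpressor against wild type 1 of 42 passed with eBayes trend and robust, with only probe sets with 1 gene and with 1 probe set of each identical group. Over all probe sets 798 of 38408, 437 of 16722 and 702 of 32879 were called there. Without 1 array 0 to 1 of 42 passed, beside 174 to 457 of 38408. In overexpressor against mutant 3 of 42 passed with eBayes trend and robust and 2 of 16 above the 50th percentile. Over all probe sets 1107 of 38408 and 1211 of 19203 were called there. With median centring 1 of 42 passed, above the 25th percentile 1 of 27, and with only probe sets with 1 gene 1 of 42. All probe sets gave 709 of 38408, 909 of 28806 and 547 of 16722 in these settings. Without 1 array 0 to 1 of 42 passed, beside 295 to 518 of 38408.

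Sign changes were confined to small, uncalled values of 5 members. AT3G05400 stood at 0.0018 in mutant against wild type with array weights and at 0.017 in overexpressor against mutant with median centring, and SFP2 at -0.0019 in overexpressor against mutant with array weights. Without 1 array, overexpressor against wild type ranged from -0.12 to 0.50 for AT3G05160 and from -0.081 to 0.013 for AT3G05400. Mutant against wild type ranged from -0.070 to 0.049 for AT3G05400, from -0.031 to 0.15 for SFP1 and from -0.20 to 0.023 for SFP2. Overexpressor against mutant ranged from -0.081 to 0.038 for AT3G05400 and from -0.13 to 0.092 for SFP2. AT4G04750 also changed sign, to -0.02, in overexpressor against wild type without wild-type array 3.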
